A study of Mus musculus with 49 samples.

Results

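Tight junctions are the belts of protein that join neighbouring epithelial cells near their apical side and close the gap between them. 9 of their genes were followed in the urinary bladder of female C57Bl/J mice. The mice were given arsenate, a salt of pentavalent inorganic arsenic, with their drinking water. The genes were 6 claudins (Cldn3, Cldn4, Cldn7, Cldn8, Cldn19 and Cldn23), Ocln, Tjp1 and Tjp3. They were listed by name among the 18193 genes with a single-gene probe set on the Affymetrix Mouse430_2 array, and each was read by its probe set of highest mean. All 9 passed the filter on dim genes, as did 14624 genes in all.

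The groups ran from water alone over 0.5, 2 and 10 to 50 ppm arsenate. Exposure lasted 1 week, with harvest at 76 days of age, or 12 weeks, with harvest at 155 days. Groups had 5 mice, or 4 at 0.5 ppm of 1 week, and each of the 49 arrays carried the RNA of a single animal. The labels name no allele beyond the strain. They give each group its own leading number for the mice, and dose cannot be told apart from what that number stands for.

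Claudins span the membrane with a short chain of loops and set which ions pass between cells. Occludin, the product of Ocln, spans the same membrane and takes part in how junctions are assembled and remodelled. The proteins of Tjp1 and Tjp3, known as ZO-1 and ZO-3, lie on the cytoplasmic side and tie claudins and occludin to the actin cytoskeleton. In the bladder the tightest junctions lie between the umbrella cells, the superficial cells of the urothelium that face the urine, and they help to keep urine and its solutes out of the wall.

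The promoters of 5 of these genes are printed because the arrays showed Cldn4, Cldn7 and Tjp3 rising and falling together from mouse to mouse, with Tjp1 moving the opposite way and Ocln moving apart from them. Each line holds the 250 bases before the annotated start on the coding strand, from RefSeq, build GRCm38.p6, and capitals mark motif matches. The windows are chr5:134946935-134947184 (minus strand) for Cldn4, chr11:69964529-69964778 (plus strand) for Cldn7 and chr10:81291582-81291831 (minus strand) for Tjp3. They are chr13:100552719-100552968 (minus strand) for Ocln and chr7:65371245-65371494 (minus strand) for Tjp1. Where 2 starts were listed, as for Cldn7, Tjp3 and Ocln, the first was used.
Cldn4: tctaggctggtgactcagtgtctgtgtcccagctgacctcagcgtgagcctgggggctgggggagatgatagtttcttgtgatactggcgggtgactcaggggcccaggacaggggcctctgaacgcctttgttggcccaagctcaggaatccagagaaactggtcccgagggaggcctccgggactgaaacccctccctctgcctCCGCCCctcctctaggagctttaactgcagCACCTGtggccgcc
Cldn7: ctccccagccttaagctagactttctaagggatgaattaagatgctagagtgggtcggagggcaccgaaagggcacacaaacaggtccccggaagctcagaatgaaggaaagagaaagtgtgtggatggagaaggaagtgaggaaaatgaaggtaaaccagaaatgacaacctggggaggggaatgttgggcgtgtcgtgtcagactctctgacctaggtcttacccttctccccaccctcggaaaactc
Tjp3: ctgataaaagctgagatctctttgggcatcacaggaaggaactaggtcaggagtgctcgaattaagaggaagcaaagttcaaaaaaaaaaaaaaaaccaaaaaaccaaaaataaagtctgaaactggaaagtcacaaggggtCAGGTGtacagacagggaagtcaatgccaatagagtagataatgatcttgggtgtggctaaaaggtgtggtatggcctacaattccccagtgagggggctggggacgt
Ocln: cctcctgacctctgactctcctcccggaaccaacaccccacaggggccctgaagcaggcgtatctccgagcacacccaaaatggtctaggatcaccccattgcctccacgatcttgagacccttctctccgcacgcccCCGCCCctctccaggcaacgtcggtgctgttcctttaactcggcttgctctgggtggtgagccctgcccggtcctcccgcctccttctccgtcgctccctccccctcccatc
Tjp1: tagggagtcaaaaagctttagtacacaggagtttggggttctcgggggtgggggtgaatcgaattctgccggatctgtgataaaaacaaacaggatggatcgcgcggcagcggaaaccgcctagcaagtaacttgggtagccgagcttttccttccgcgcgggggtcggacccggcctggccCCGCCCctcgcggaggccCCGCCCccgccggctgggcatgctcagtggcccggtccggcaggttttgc
The letters searched on both strands were GGGCGG, the core of the GC box, CAGGTG, an E-box, AACCGG, a core of the Grainyhead-like motif, and TATAAA. No match overlapped a match of another motif. GGGCGG occurred once in Cldn4 and in Ocln and 2 times in Tjp1, and in 32.9% of 27025 promoters of this length. CAGGTG occurred once in Cldn4 and in Tjp3, and in 17.1% of promoters. Cldn7 held none of the 4, and AACCGG and TATAAA, found in 5.55% and 13% of promoters, were in none of the 5. The GC content was 62.0% in Cldn4, 51.2% in Cldn7, 43.2% in Tjp3, 64% in Ocln and 63.2% in Tjp1, beside a median of 52.0% over all promoters. No searched motif was present in all 3 of Cldn4, Cldn7 and Tjp3. Promoter sequences were not at hand for Cldn23, which varied with these 3, or for Cldn8. A match describes letters, not a bound factor.

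Values are log2(signal + 16), a scale whose floor is 4, and a group mean under 5 is called near the floor because the signal is then smaller than the offset. Levels of different genes are not set against each other, since probe sets differ in brightness. Array medians before the offset spanned 0.461 on the log2 scale. The mean RNA integrity number, a score of RNA intactness, was lowest at 2 ppm of 1 week, at 8.16 with a range of 7.2 to 9.7, and 2 arrays of 10 ppm at 1 week had none. Poly-A control transcripts, bacterial RNAs that are added to each sample before labelling, differed between groups of the 12-week harvest. Their mean level minus water was -0.39 at 0.5 ppm, -0.49 at 2 ppm, -1.05 at 10 ppm and -0.86 at 50 ppm, against -0.10, 0.23, -0.09 and -0.17 at 1 week. The tissue label was checked with markers, and all 15 listed genes of superficial and intermediate urothelium were measured, with means over all arrays from 11.02 for Epcam to 15.04 for Krt18. Of 5 basal urothelium markers 4 were kept, Krt17 being near the floor at 4.93, and all 9 smooth muscle markers were kept, Lmod1 lowest at 10.49. Lists for fibroblasts, endothelium, mesothelium, Schwann cells, leukocytes, kidney tubule, liver and adipocytes had means from 4.74 for Cldn16 to 14.68 for Col3a1.

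Over the 8 comparisons of a dose with its water group, 1 of 72 gene-by-dose tests was called, meaning an adjusted p under 0.05 from limma over all 14624 genes, while 14 had an unadjusted p under 0.05, as did 14.5% of the same tests over all genes. The 7 genes that stayed clear of the floor gave 0 calls in 56 limma tests, 11 of them with an unadjusted p under 0.05, and their changes lay between -0.42 and 0.56 on the log2 scale. At 12 weeks, 0, 0, 0 and 1 of the 9 genes were called at 0.5, 2, 10 and 50 ppm, where 0.527%, 0.0137%, 0.335% and 4.06% of all genes were. At 1 week the counts were 0 at each dose, beside 0.0479%, 0%, 0.78% and 0.335% of all genes. The count of members with an unadjusted p under 0.05 was 3, 1, 1 and 3 at 12 weeks and 3, 0, 2 and 1 at 1 week, again from 0.5 to 50 ppm. Of all genes, 19%, 9.91%, 16% and 24.1% had such a p at 12 weeks and 12.5%, 5.93%, 17.1% and 11.5% at 1 week. In 5 of the 72 tests the arrays of the dose group did not overlap those of water. They were 2 at 0.5 ppm and 1 at 10 ppm of 1 week, and 1 each at 10 and 50 ppm of 12 weeks. Of all genes, 6.76%, 5.7%, 3.2% and 5.85% did not overlap in these comparisons. No share over all 8 comparisons is given here. When the 10 group means of a gene were put in order, neighbouring groups overlapped at all 9 steps for each of the 9 genes. Neighbours in a sorted order lie close by construction, so this overlap does not show that the groups are alike.

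**Figure D1:**
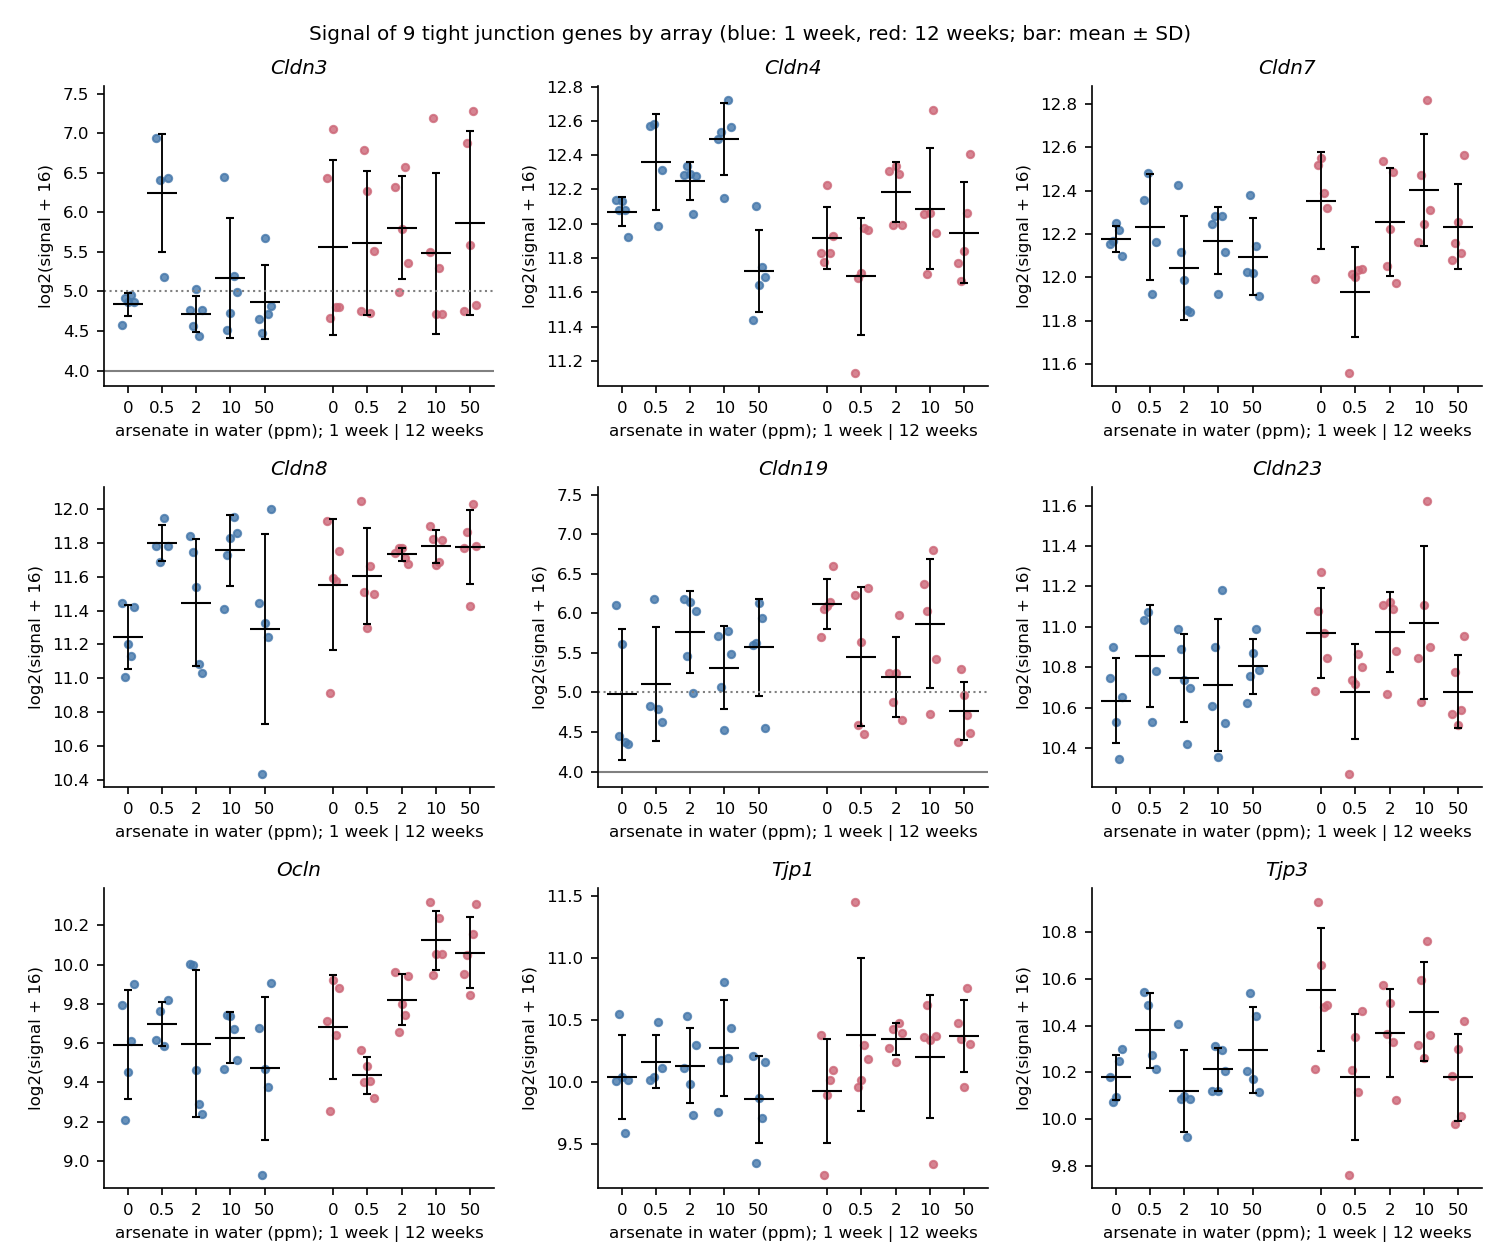
Log2(signal + 16) of each array for the 9 genes, by arsenate dose in ppm with water at 0, at 1 week (blue) and 12 weeks (red), and with mean and SD as bars. The dotted line at 5 and the solid line at 4 in the Cldn3 and Cldn19 panels mark the near-floor limit and the floor, and Ocln is highest at 10 and 50 ppm of 12 weeks.

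Among the transmembrane proteins, Ocln had the 1 dose slope that was called among the 9 genes. At 12 weeks its values were 9.71, 9.25, 9.92, 9.64 and 9.88 in the water mice. They were 9.57, 9.40, 9.48, 9.41 and 9.32 at 0.5 ppm and 9.96, 9.66, 9.80, 9.74 and 9.94 at 2 ppm. They were 10.32, 9.95, 10.06, 10.24 and 10.05 at 10 ppm and 9.95, 10.05, 9.85, 10.16 and 10.31 at 50 ppm. All arrays at 10 ppm lay above every water array, a separation met by 3.2% of all genes in that comparison, and at 50 ppm the groups overlapped, with all 5 arrays above the water mean. The slope over the 5 dose ranks was 0.14 ± 0.03 per rank (SE, adjusted p = 0.0104), where 1 of 9 genes and 5.26% of all genes were called. Against water, 10 ppm differed by 0.44 ± 0.11 (adjusted p = 0.0726), 50 ppm by 0.38 ± 0.11 (adjusted p = 0.0541) and 0.5 ppm by -0.25 ± 0.11 (adjusted p = 0.242), so the means did not climb at every step. Group means were 9.68 ± 0.27 in water, 9.44 ± 0.09 at 0.5 ppm, 9.82 ± 0.13 at 2 ppm, 10.12 ± 0.15 at 10 ppm and 10.06 ± 0.18 at 50 ppm (SD, n = 5 each).

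The poly-A level moved with dose over the same arrays, and with it as a covariate the Ocln slope was 0.11 with an adjusted p of 0.486. Leaving out each of the 25 arrays in turn kept the slope call every time, with slopes from 0.13 to 0.16. In the 1-week mice the Ocln slope was -0.03 ± 0.04 (adjusted p = 0.871), where 0 of 9 genes and 0.267% of all genes were called, and 0 of the 9 had an unadjusted p under 0.05, beside 9.72% of all genes. The 50 ppm effect differed between harvests by 0.50 ± 0.20 for Ocln (adjusted p = 0.111), and the slopes themselves were not compared. A dimmer probe set of Ocln had a 12-week slope of 0.10 ± 0.04 (adjusted p over all probe sets = 0.144). The 2 sets differed at 1 week. From 0.5 to 50 ppm the dimmer set changed by 0.26, 0.41, 0.54 and -0.07, and the main set by 0.10, 0.005, 0.03 and -0.12. For the dimmer set limma gave adjusted p over all probe sets of 0.73 at 2 ppm and 0.0836 at 10 ppm. Its 1-week slope was 0.02 ± 0.05 (adjusted p = 0.949). Over the 11 marker lists, means minus water at 12 weeks ran from -0.35 for adipocytes to 0.34 for smooth muscle at 50 ppm. At 10 ppm they ran from -0.88 for adipocytes to 0.31 for kidney tubule, with smooth muscle at 0.06. Their part in the result was not tested, and in whole bladders fewer cells of a type cannot be told apart from less RNA per cell.

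Cldn8, whose product is a claudin of tight epithelia such as those of the distal nephron, did not overlap water at 0.5 ppm of 1 week. Its values there were 11.78, 11.69, 11.94 and 11.78, against 11.45, 11.01, 11.20, 11.13 and 11.42 in water, so every treated array lay above every water array. The difference was 0.56 ± 0.20 with an adjusted p of 0.261. At 10 ppm of 1 week it was 0.51 ± 0.19 with an adjusted p of 0.163, and the arrays overlapped. Non-overlap was met by 2 of the 9 genes at 0.5 ppm of 1 week, Cldn8 and Cldn3, while 6.76% of all genes did not overlap there. Marker means minus water at this dose ran from -0.77 for liver and -0.61 for kidney tubule to 0.34 for adipocytes. They were 0.20 for superficial and intermediate urothelium, 0.27 for basal urothelium and -0.17 for smooth muscle. The superficial and intermediate urothelium mean did not overlap water either, at 13.347 to 13.624 against 13.180 to 13.345. The part of any list in the result was not tested. At 12 weeks Cldn8 means ran only from 11.55 to 11.78 over the 5 groups, and its slope was 0.06 ± 0.03 (adjusted p = 0.222), or 0.03 without replicate 2 of water and -0.04 with the poly-A level as a covariate.

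Cldn4, a barrier-forming claudin of many epithelia, had values of 12.49, 12.54, 12.15, 12.72 and 12.56 at 10 ppm of 1 week, against 12.14, 12.08, 12.14, 12.08 and 11.92 in water. All treated arrays lay above all water arrays, a separation met by 5.7% of all genes in that comparison. The change was 0.42 ± 0.12 (adjusted p = 0.0726). At 50 ppm of 1 week the values were 11.44, 12.10, 11.64, 11.75 and 11.69, and the change of -0.35 ± 0.12 (adjusted p = 0.203) had the opposite sign. The Cldn4 change was therefore not monotone over dose, and its 1-week slope was -0.05 ± 0.04 (adjusted p = 0.743). At 12 weeks its means were 11.92 in water, 11.69 at 0.5 ppm, 12.18 at 2 ppm, 12.09 at 10 ppm and 11.95 at 50 ppm.

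Cldn7, found along the lateral membrane as well as at the junction, had values of 11.56, 12.02, 12.00, 12.04 and 12.04 at 0.5 ppm of 12 weeks, against 11.99, 12.52, 12.55, 12.39 and 12.32 in water. The 0.5 ppm arrays all lay below the water mean and the groups overlapped. The difference was -0.42 ± 0.13 (adjusted p = 0.0939), and the superficial and intermediate urothelium markers averaged 0.22 lower there, with arrays from 13.07 to 13.30 against 13.29 to 13.51 in water. Over the same arrays fibroblast markers were 0.42, endothelium 0.41 and kidney tubule 0.66 above water, and mesothelium was 0.42 below it. Of 10 fits without an array 9 gave no call (adjusted p up to 0.275), and the one without replicate 1 of water gave an adjusted p of 0.0397. With the poly-A level as a covariate the difference was -0.21. For Cldn23, a less studied claudin, changes from water lay between -0.29 and 0.22 with no unadjusted p under 0.05, and its group means ran from 10.63 in water of 1 week to 11.02 at 10 ppm of 12 weeks.

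The 12-week change of Tjp3 was -0.38 ± 0.14 at 0.5 ppm (adjusted p = 0.139) and -0.38 ± 0.14 at 50 ppm (adjusted p = 0.0959). Its values were 9.76, 10.21, 10.35, 10.12 and 10.46 at 0.5 ppm and 10.18, 9.98, 10.30, 10.01 and 10.42 at 50 ppm, against 10.22, 10.93, 10.66, 10.48 and 10.49 in water. At both doses every array lay below the water mean, and the groups overlapped. With the poly-A level as a covariate the changes were -0.16 at 0.5 ppm and 0.11 at 50 ppm. Tjp1 had means from 9.86 at 50 ppm of 1 week to 10.38 at 0.5 ppm of 12 weeks, with a median within-group SD of 0.35, and changes from -0.18 to 0.45, none with an unadjusted p under 0.05. At 0.5 ppm of 12 weeks replicate 1 read 11.46 and the other 4 arrays 9.96 to 10.30.

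Cldn19 and Cldn3 were the dim genes. Cldn19, a claudin of the thick ascending limb of the kidney and of the retina, was near the floor in 2 of 10 groups, and 18 of its arrays read under 5. Its values at 50 ppm of 12 weeks were 4.38, 5.29, 4.96, 4.71 and 4.49, against 5.70, 6.05, 6.09, 6.14 and 6.60 in water. No arrays overlapped, which 5.85% of all genes showed in this comparison, and the change of -1.35 ± 0.40 (adjusted p = 0.0499) was the 1 call. It depended on the scale, being -2.25 with an offset of 1 and -0.64 with an offset of 64, and on single arrays, since the call was lost on leaving out any of the 10 arrays except replicate 1 of water (adjusted p 0.0321 to 0.109). With the poly-A level as a covariate it was -1.48 (adjusted p = 0.397). At this dose marker means differed from water by -0.01 for superficial and intermediate urothelium, 0.10 for basal urothelium and 0.14 for kidney tubule. The difference was 0.34 for smooth muscle, 0.30 for fibroblasts, 0.26 for endothelium and -0.31 for mesothelium. It was -0.19 for Schwann cells, -0.04 for leukocytes, -0.18 for liver and -0.35 for adipocytes. The part of any list in the result was not tested.

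Cldn3, another barrier-forming claudin, was near the floor in 3 of 10 groups, and 26 of its arrays read under 5. It read 6.94, 6.41, 5.18 and 6.44 at 0.5 ppm of 1 week, against 4.58, 4.92, 4.86, 4.96 and 4.87 in water. The change was 1.40 ± 0.38 (adjusted p = 0.137) without overlap, or 2.12 with an offset of 1 and 0.72 with an offset of 64. A further Cldn3 probe set, whose x_at suffix marks probes that may bind other transcripts, changed by 0.31 ± 0.44 in the same comparison. The remaining 2 sets, too dim to be tested, averaged 5.02 ± 0.52 and 4.72 ± 0.26 at 0.5 ppm of 1 week (SD, n = 4). In 1-week water they averaged 4.38 ± 0.05 and 4.59 ± 0.17 (SD, n = 5). All 4 sets thus averaged above water there, by differing amounts. At 50 ppm of 12 weeks the 4 probe sets of Cldn3 disagreed in sign. The further set averaged 6.04 ± 0.76 at 50 ppm and 4.71 ± 0.07 in water (SD, n = 5 each), a change of 1.33 ± 0.37 (adjusted p over all 27078 probe sets tested = 0.0423), while the main set changed by 0.31 ± 0.57. The other two sets, too dim to pass the filter and so not tested, averaged 4.66 ± 0.39 and 5.43 ± 0.61 at 50 ppm against 5.06 ± 0.59 and 5.52 ± 1.08 in water, below water in both. The slope of the further set over dose ranks was 0.30 ± 0.08 (adjusted p = 0.0273).

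**Figure D2:**
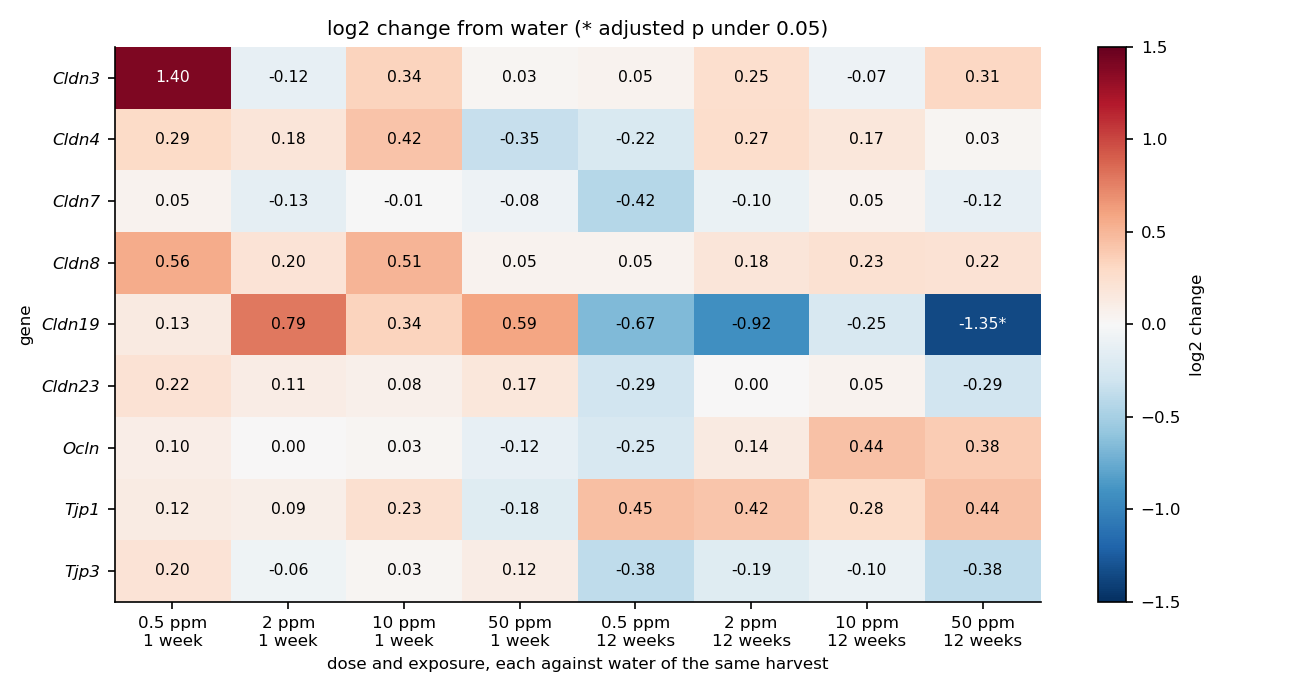
Log2 change of each gene (rows) from water of the same harvest at each dose (columns), with an asterisk where the adjusted p was under 0.05. The 1 asterisk is Cldn19 at 50 ppm of 12 weeks, and the changes of the 7 genes clear of the floor lie between -0.42 and 0.56.

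Whether a dose effect differed between 12 weeks and 1 week was tested with interaction contrasts. At 0.5, 2, 10 and 50 ppm, 1, 0, 0 and 1 of the 9 genes were called, where 4.61%, 0%, 1.37% and 7.36% of all genes were. Unadjusted p-values under 0.05 numbered 4, 1, 0 and 4, beside 19.6%, 5.94%, 13.9% and 25.1% of all genes. The 0.5 ppm effect on Tjp3 was lower at 12 weeks than at 1 week by -0.58 ± 0.18 (adjusted p = 0.0459), with -0.38 at 12 weeks and 0.20 at 1 week. Of 19 fits that left out an array, 11 lost this call (adjusted p 0.0212 to 0.117). They were those without replicate 1, 2, 3 or 4 of water or 2 or 3 of 0.5 ppm at 1 week, and 2, 3 or 5 of water or 1 or 4 of 0.5 ppm at 12 weeks. The 50 ppm effect on Cldn19 differed by -1.95 ± 0.57 (adjusted p = 0.0292), with -1.35 at 12 weeks and 0.59 at 1 week, and 8 of 20 such fits lost the call (adjusted p 0.0124 to 0.058). These left out replicate 2, 4 or 5 of water or 2, 3 or 4 of 50 ppm at 1 week, or 2 or 5 of water at 12 weeks. The size was -3.46 with an offset of 1 and -0.89 with an offset of 64. Urothelium markers at 0.5 ppm were 0.22 below water at 12 weeks and 0.20 above it at 1 week, and fibroblast markers 0.42 above it at 12 weeks and 0.14 below it at 1 week. Their part in the Tjp3 difference was not tested.

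The water groups differ in age, in harvest and in whatever was done to each harvest, which cannot be told apart. Of the 9 genes 2 were called higher and 0 lower in 12-week water, where 13.4% of all genes were called, 6.26% higher and 7.09% lower. A change above 0 was seen in 7 of 9, and in 53% of all genes. Tjp3 was higher by 0.38 ± 0.12 (adjusted p = 0.0296), with the 12-week values given above, against 10.18, 10.07, 10.09, 10.25 and 10.30 in 1-week water. Cldn19 was higher by 1.14 ± 0.40 (adjusted p = 0.049), with the 12-week values given above, against 1-week values of 6.11, 4.45, 5.61, 4.37 and 4.34, a mean near the floor. Both pairs of groups overlapped, as those of all 9 genes did, while 9.53% of all genes did not. Tjp3 lost its call in 4 of 10 fits without an array, replicates 2 and 3 of each harvest (adjusted p 0.00873 to 0.113). Cldn19 lost it in 7 of 10, replicates 2, 4 and 5 of 1 week and 2, 3, 4 and 5 of 12 weeks (adjusted p 0.016 to 0.129), and its size was 2.05 with an offset of 1 and 0.52 with an offset of 64. The superficial and intermediate urothelium marker mean was 13.29 to 13.51 in 12-week water and 13.18 to 13.35 in 1-week water, and the smooth muscle mean 13.28 to 13.69 and 13.67 to 14.02. The fibroblast mean did not overlap, at 12.65 to 13.25 in 12-week water and 13.77 to 13.84 in 1-week water. Nor did the liver mean, at 7.08 to 7.64 in 12-week water and 8.44 to 10.85 in 1-week water, and its Alb averaged 6.29 in 12-week and 9.85 in 1-week water. The part of any list was not tested. These results and the dose results at 12 weeks share the 5 water arrays.

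The wider list of 42 other tight junction genes, 41 on the array and 37 kept, was set beside them. It was chosen with earlier results of these data known and is described by counts. In the water contrast 7 were called higher and 0 lower, where 6.26% and 7.09% of all genes were. The median change was 0.08, beside 0.02 over all genes, with 21 of the 37 changes above 0 and 16 below. The part of the marker lists given above was not tested here either. Ildr1 (0.51 ± 0.10, adjusted p = 0.000651), Marveld2 (0.69 ± 0.17, adjusted p = 0.00417) and Lsr (0.44 ± 0.12, adjusted p = 0.0129), whose products sit at the corners where 3 cells meet, were higher. So were Crb3 (0.58 ± 0.15), a polarity protein, and Cldn14 (1.16 ± 0.29). Cldn14 was dim, at 6.59 in 12-week and 5.43 in 1-week water, and its change was 1.61 with an offset of 1 and 0.66 with an offset of 64, called with both. These 5 were called in all 10 fits without an array. Cgn, the cytoplasmic plaque protein cingulin (0.38 ± 0.12), and Patj, a polarity scaffold (0.28 ± 0.09), were called but lost the call in 4 and 8 of 10 such fits (adjusted p up to 0.1 and 0.107). For Cgn these left out replicate 3 or 5 of 12 weeks or 2 or 4 of 1 week, and for Patj any array except replicate 4 of 12 weeks and 1 of 1 week.

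**Figure D3:**
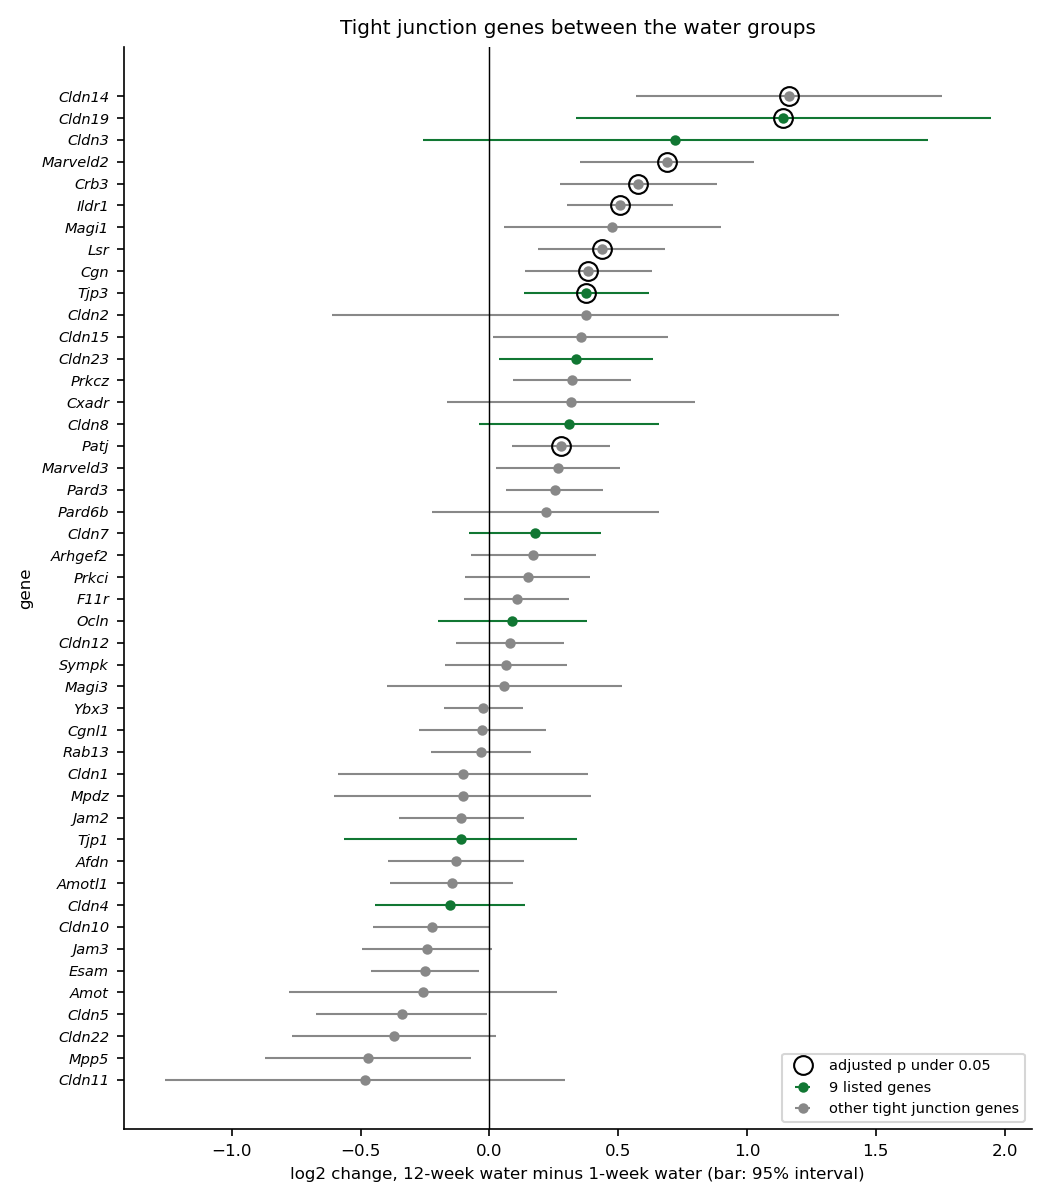
Log2 change of 12-week water minus 1-week water with 95% intervals for the 9 genes (green) and 37 other tight junction genes (grey), ordered by change. Open rings mark an adjusted p under 0.05: Tjp3 and Cldn19 among the 9, and 7 others, all above 0.

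Under arsenate none of the 37 was called by limma at any dose or in either slope. Unadjusted p-values under 0.05 numbered 10, 5, 4 and 8 at 12 weeks and 4, 0, 7 and 3 at 1 week, from 0.5 to 50 ppm, to be read against the shares of all genes given above for the 9. The largest changes at 50 ppm of 12 weeks, none called, were Mpdz at 0.80 ± 0.29, Pard6b at -0.62 ± 0.24, Cldn2, a pore-forming claudin, at 0.59 ± 0.49, and Cldn1 at 0.51 ± 0.22. With the poly-A level as a covariate Mpdz was at -0.08, Cldn1 at 0.10 and Cldn2 at 2.04. Cldn2 was also at 0.36 with an offset of 64, 0.26 without replicate 1 of water and 0.39 without replicate 5 of 50 ppm. In the interaction contrasts the 0.5 ppm effect was lower at 12 weeks for Prkcz, an atypical protein kinase C (-0.59 ± 0.17, adjusted p = 0.0306), and Lsr (-0.59 ± 0.18, adjusted p = 0.0464). The 50 ppm effect on Mpp5, the polarity protein PALS1, was higher at 12 weeks by 0.93 ± 0.28 (adjusted p = 0.0352). That made 2 calls among the 37 at 0.5 ppm and 1 at 50 ppm, where 4.61% and 7.36% of all genes were called. Prkcz lost its call in 8 of 19 fits without an array (adjusted p up to 0.0817): replicate 3 or 5 of water or 1 or 4 of 0.5 ppm at 12 weeks, and 2 of water or 2, 3 or 5 of 0.5 ppm at 1 week. Lsr lost it in 14 of 19 (adjusted p up to 0.144), all but those without replicate 1 of water or 3 of 0.5 ppm at 12 weeks, or 4 of water or 4 or 5 of 0.5 ppm at 1 week, and in 5 of 10 alternatives. Mpp5 lost it in 9 of 20 (adjusted p up to 0.0899): replicate 2 or 3 of water or 4 of 50 ppm at 12 weeks, and 1, 2 or 5 of water or 2, 3 or 4 of 50 ppm at 1 week. With the poly-A level as a covariate none of the 3 was called by limma (adjusted p 0.0534 for Prkcz, 0.0807 for Lsr and 0.297 for Mpp5).

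Within groups, some of the 9 genes varied together and some against each other. Deviations from the 10 group means were correlated over the 49 arrays, and p-values came from 100000 permutations within groups, two-sided, adjusted over the 36 pairs. Of the pairs 13 were called, 8 positive and 5 negative. Pairs of other genes were not tested, so this count cannot be called particular to these genes. Cldn7 and Tjp3 had r = 0.80 (rho = 0.76, adjusted p = 9e-05, from the smallest p these permutations can give), with 0.77 within the 1-week and 0.82 within the 12-week mice, and 0.77 without the 2 arrays farthest from the median of Cldn7. Cldn4 and Cldn23 had r = 0.75 (rho = 0.71, adjusted p = 9e-05), and Cldn4 and Cldn7 r = 0.72 (rho = 0.72, adjusted p = 9e-05). All 6 pairs among Cldn4, Cldn7, Cldn23 and Tjp3 were positive and called over the 49 arrays, from 0.53 to 0.80. They ran from 0.49 to 0.77 within 1 week, where Cldn4 with Tjp3 (0.58) and Cldn23 with Tjp3 (0.49) were not called. Within 12 weeks they ran from 0.54 to 0.84.

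A separate set was Cldn8 with Ocln (r = 0.77, rho = 0.61, adjusted p = 9e-05) and with Tjp1 (r = 0.63, rho = 0.61, adjusted p = 0.00012). Cldn8 with Ocln reached 0.86 within 1 week and 0.59 within 12 weeks (adjusted p = 0.053). Cldn8 with Tjp1 had 0.51 within 1 week, not called, and 0.80 within 12 weeks. Tjp1 ran against the first set, with r = -0.63 for Tjp3 (rho = -0.59, adjusted p = 0.000411), -0.58 for Cldn7, -0.53 for Cldn4 and -0.42 for Cldn23. Cldn8 with Tjp3 had r = -0.40 (adjusted p = 0.0382), and its rho of -0.31 was not called. Within 1 week Tjp1 had -0.38 with Tjp3, -0.45 with Cldn7, -0.46 with Cldn4 and -0.01 with Cldn23. Cldn8 with Tjp3 had -0.13 there, and none of these pairs was called within 1 week. Replicate 1 of 0.5 ppm at 12 weeks stood apart for 3 of the 9 genes, and without it 12 of 36 pairs were called. Tjp1 with Cldn4 (-0.40), Tjp1 with Cldn23 (-0.33) and Cldn8 with Tjp3 (-0.33) then lost their calls. Without the 2 farthest arrays 10 were called, and these 3 (-0.32, -0.33 and -0.32) and Cldn4 with Tjp3 (0.43) were not among them.

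**Figure D4:**
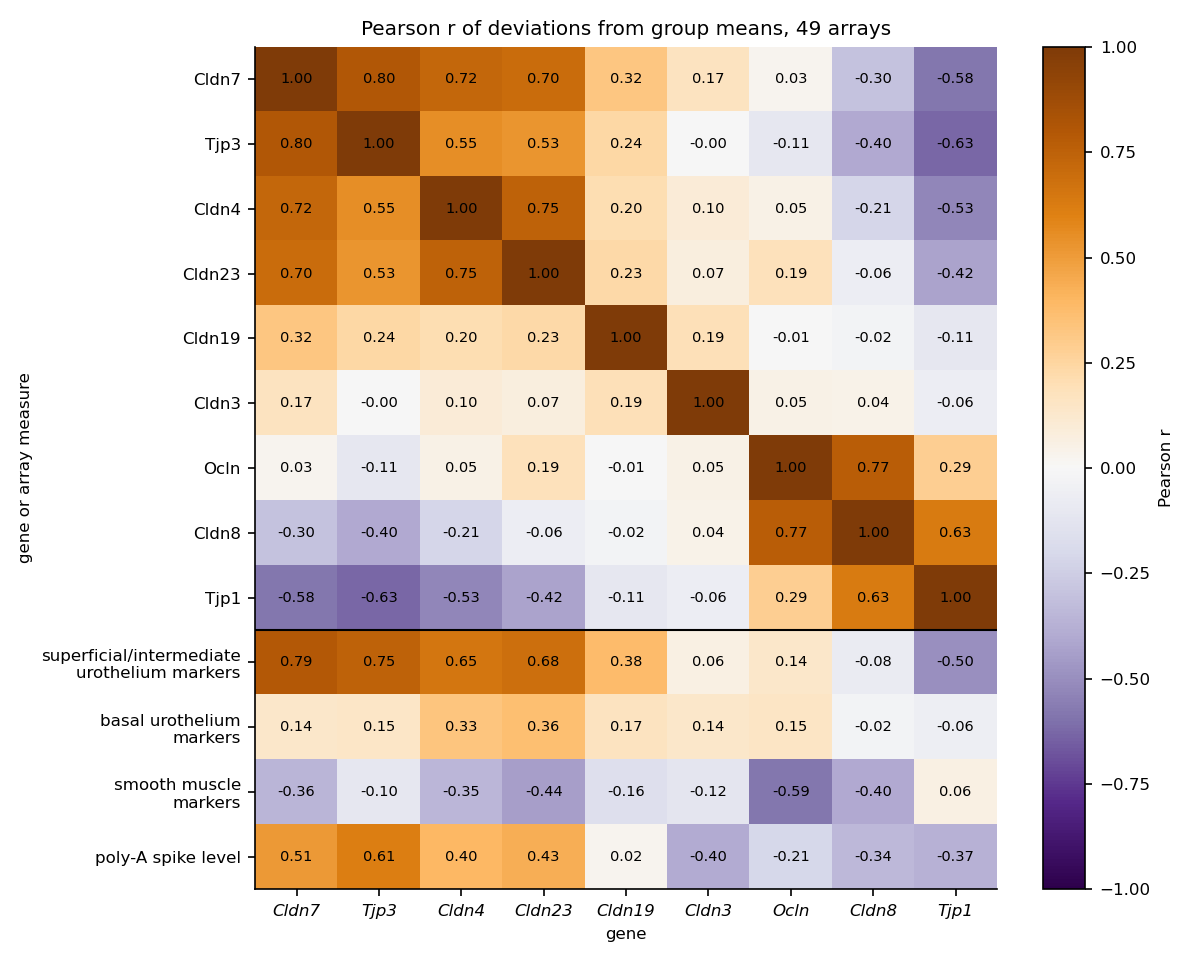
Pearson r of deviations from group means over 49 arrays, for the 9 genes against each other and, below the line, against marker means and the poly-A control level. Cldn7, Tjp3, Cldn4 and Cldn23 form a positive block of 0.53 to 0.80, and Tjp1 is negative against them.

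The first set also followed the superficial and intermediate urothelium marker mean, with r = 0.79 for Cldn7 (rho = 0.78, adjusted over 27 relations p = 9e-05), 0.75 for Tjp3, 0.68 for Cldn23 and 0.65 for Cldn4. Tjp1 had -0.50 (adjusted p = 0.0054) and Cldn19 0.38 (adjusted p = 0.041). Of the 27 relations with marker means 9 were called, and of 18 with the poly-A level or the RNA integrity number 3. Such relations were not tested for other genes. The smooth muscle mean correlated with Ocln at -0.59 (rho = -0.59, adjusted p = 0.00027), with Cldn23 at -0.44 and with Cldn8 at -0.40. By rho, Cldn23 and Cldn8 (-0.34 and -0.32) were not called. Within 12 weeks r was -0.39 for Ocln, -0.41 for Cldn23 and -0.16 for Cldn8, none of them called. Within 1 week it was -0.74, -0.47 and -0.59, with Cldn23 not called. The poly-A level correlated with Tjp3 at 0.61 (adjusted over 18 relations p = 0.00036), with Cldn7 at 0.51 and with Cldn23 at 0.43. Within 12 weeks the 5 called were Tjp3 at 0.71, Cldn7 at 0.69, Cldn23 at 0.51, Cldn8 at -0.65 and Tjp1 at -0.64. Within 1 week 0 of 18 were called, with Tjp3 at 0.45, Cldn7 at 0.24, Cldn23 at 0.33, Cldn8 at -0.09 and Tjp1 at 0.05. The part of the marker means or of the poly-A level in the correlations among the 9 genes was not tested. Over the 49 arrays, the genes whose deviations were most like the mean of the 7 floor-free genes were Gjb6 (r = 0.77), Plet1 (0.77), Igsf5 (0.76), Osbpl2 (0.75) and Esrp1 (0.75).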

How the data were processed

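Bladder RNA of 49 mice was hybridised to 1-colour Affymetrix Mouse430_2 arrays after Trizol extraction and Qiagen purification, per the labels' protocols. Per the deposited table, each probe set has a linear intensity on each array. Per the submitters' processing notes the software was GCOS 1.0, with settings not given in the sources used here. Trimmed means of 500.003 to 500.004 on every array show a common scaling. Of 45101 probe sets, 34945 have 1 gene in the platform annotation, 932 several and 9160 none (64 controls are left out). The number of arrays limits the precision.

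Signals were taken as log2(value + 16). A gene was read by its probe set of highest mean and kept where 4 or more arrays put it above their 40th percentile. limma 3.58.1 in R 4.3.3 (lmFit, eBayes with trend) fitted the 24 and 25 arrays of each harvest for dose and slope, and all 49 for interactions and the water contrast, with Benjamini-Hochberg adjustment over 14624 genes and a threshold of 0.05. Correlations used Python 3.11.15, scipy 1.17.1 and numpy 2.4.6. In simulated data for 50 ppm at 12 weeks over 14624 genes, the shares found were 35.8% at a true fold of 1.5, 70.1% at 2 and 100% at 4, with 7 false calls among 144. The simulated noise was normal and independent between genes. Variation that genes share, or that goes with the poly-A level, was not simulated, so these shares need not hold for the real arrays. Named were the 9 genes, other tight junction genes that were called or were the 4 of largest change at 50 ppm of 12 weeks, and the 5 genes most like the mean of the floor-free members. Members and lists were chosen with earlier results of these data known. Alternatives were offsets of 1 and 64, quantile normalization, other filters, all probe sets, array weights, a joint fit of both harvests, a covariate (RNA integrity number or poly-A level), a replicate block, leaving out each replicate, and, added after seeing the data, arrays with an integrity number under 8 or replicate 1 of 0.5 ppm at 12 weeks left out.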

Additional observations from a re-analysis of the deposited data

Results flagged for a closer look

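Within-group outliers were looked for by Dixon's ratio in the 90 gene-by-group sets, where chance flags about 1 in 20, and 9 were found. Replicate 1 of 0.5 ppm at 12 weeks stood apart for 3 genes: Cldn7 at 11.56 (nearest array 12.00), Cldn23 at 10.27 (10.71) and Tjp1 at 11.46 (10.30). For Tjp1, replicate 4 of 10 ppm at 12 weeks read 9.34 (nearest 10.34). Cldn4 read 12.06 in replicate 4 of 2 ppm (nearest 12.28) and 11.92 in replicate 5 of water (12.08), both at 1 week. Cldn3 read 5.68 in replicate 3 of 50 ppm (nearest 4.81) and 4.58 in replicate 1 of water (4.86), both at 1 week, and Cldn19 read 6.18 in replicate 3 of 0.5 ppm at 1 week (4.83). Cldn3 and Cldn19 are the dim genes.

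Effects that differed between harvests, by the interaction test, were the 0.5 ppm effect on Tjp3 at -0.58, on Prkcz at -0.59 and on Lsr at -0.59, and the 50 ppm effect on Cldn19 at -1.95 and on Mpp5 at 0.93. Each of these calls was lost in part of the fits that left out an array: 11 of 19 for Tjp3, 8 of 19 for Prkcz, 14 of 19 for Lsr, 8 of 20 for Cldn19 and 9 of 20 for Mpp5. The calls were 1 of the 9 genes and 2 of the 37 at 0.5 ppm, beside 4.61% of all genes. At 50 ppm they were 1 of the 9 and 1 of the 37, beside 7.36% of all genes.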

How the results depend on the processing

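The Ocln slope call at 12 weeks was kept in all leave-one-out fits and under each alternative run for it except the poly-A covariate, which gave 0 calls among the 9 genes in place of 1. The Cldn19 call at 50 ppm of 12 weeks was lost, leaving 0, with offsets of 1 and 64, quantile normalization, all probe sets (each gene by its main set, a further Cldn3 set being called), the RNA integrity number and the poly-A level, while array weights and all arrays in 1 fit gave 2. With the 60th percentile filter, which removes Cldn19, and with the replicate block (Cldn19 adjusted p = 0.0617) the count stayed 1 because Ocln was called (adjusted p = 0.0429 and 0.0485). Leave-one-out counts there ran from 0 to 3, the 3 without replicate 1 of water at 12 weeks. Other 12-week dose counts were 0 to 1 at 0.5 and 10 ppm and 0 at 2 ppm, and 1-week counts were 0 to 1 at 0.5 ppm, without replicate 4 of that group, and 0 elsewhere. Array weights gave 1 call at 0.5 ppm of 12 weeks and 2, 2 and 1 at 0.5, 10 and 50 ppm of 1 week. Quantile normalization and the RNA integrity number each gave 1 at 10 ppm of 1 week. For the 0.5 ppm interaction the count was 0 with quantile normalization, no filter, all probe sets, both covariates and the replicate block, 2 with array weights and 0 to 1 on leaving out an array. For the 50 ppm interaction it was 0 with the 60th percentile filter and the poly-A level, and 0 to 3 on leaving out an array. For the 2 and 10 ppm interactions it stayed 0. The water contrast gave 1 with an offset of 64, quantile normalization, the 60th percentile and the replicate block, 0 with the integrity number, 4 with array weights, and 0 to 2 on leaving out an array. With the poly-A level as covariate, 3 changes reversed: Mpdz -0.078 and Tjp3 0.11 at 50 ppm of 12 weeks, and the Cldn8 slope -0.040; the cause was not tested. Without arrays of an integrity number under 8, the 2 ppm comparison, slope and interaction counts that involve 1 week stayed 0. Pairs called within 1 week numbered 5, beside 13 in all. Mice share replicate numbers, but only 6 of 39 same-number pairs of groups correlated above 0.1 (-0.09 to 0.39), so the numbers were not taken as pairing, and with the replicate block the 0.5 ppm interaction had 0 calls and the water contrast 1. Dim signal limits Cldn3, Cldn19 and Cldn14.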
